A study of Mus musculus with 6 samples.

Results

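The interferon-induced transmembrane (Ifitm) genes of mouse bone were followed across 3 skeletal sites. The 5 genes are Ifitm1, Ifitm2, Ifitm3, Ifitm5 and Ifitm6, and they were chosen by symbol in the annotation of the array. Each was represented by 1 probe set, so the group comprised 5 of 18193 genes named on the array. The arrays were Affymetrix mouse GeneChips with 45101 probe sets, 2 each for calvaria, mandible and ulna. All bones came from untreated, skeletally mature male mice of 24 to 26 g, whose strain is given in the methods as Black CD57. Sutures were cut away from the calvaria, and soft tissue and epiphyses from the ulna, whereas the mandible was taken with its teeth. Whole bone was ground, so each array holds marrow, vessels and remaining soft tissue as well as bone cells. The mice numbered 10 in 2 groups, but how many contributed to an array, and whether arrays of the same number share animals, is not given in the sources used here, so that a p-value here reflects the scatter of these arrays alone and that scatter could be technical.

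Ifitm proteins are small membrane proteins. Ifitm1, Ifitm2 and Ifitm3 are made in most cell types, are induced by interferon and hinder enveloped viruses from fusing with the cell. Ifitm5, also called Bril, is instead a protein of mineralising osteoblasts, and a dominant form of brittle bone disease in humans arises from changes in IFITM5. Ifitm6 is known in the mouse chiefly from myeloid cells of the marrow.

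All 5 genes lie together on mouse chromosome 7, in the order Ifitm5, Ifitm2, Ifitm1, Ifitm3, Ifitm6, with Ifitm1 on the plus strand and the other 4 on the minus strand. Start regions are shown because the members differ in the GC boxes and interferon elements they carry. The sequences are from RefSeq on GRCm38.p6, which held start regions for all 5 genes, and are given 5′ to 3′ on the strand of the gene. The 250 bases before the annotated start of Ifitm5 are chr7:140950244-140950493, and those of Ifitm3 are chr7:141010745-141010994. Capitals mark the GC box GGGCGG, a binding site for Sp factors, on either strand.
Ifitm5: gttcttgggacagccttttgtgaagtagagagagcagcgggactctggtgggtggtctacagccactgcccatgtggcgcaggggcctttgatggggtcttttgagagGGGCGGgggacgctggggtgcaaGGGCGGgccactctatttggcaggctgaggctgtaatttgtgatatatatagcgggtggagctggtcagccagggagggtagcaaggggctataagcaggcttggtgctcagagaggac
Ifitm3: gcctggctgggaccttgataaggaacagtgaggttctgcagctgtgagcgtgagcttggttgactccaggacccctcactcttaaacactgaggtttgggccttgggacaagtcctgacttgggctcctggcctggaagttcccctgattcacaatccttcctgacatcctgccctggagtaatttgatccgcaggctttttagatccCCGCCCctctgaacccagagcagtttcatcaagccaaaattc
The interferon-stimulated response element (ISRE), the DNA element bound by the factor complex that interferon activates, was searched on both strands as GAAA, then any 2 bases, then GAAA, from 250 bases before to 50 bases after the start. Matches are shown in capitals within 30 bases, the first from Ifitm2 (chr7:140955988-140956017) and the others from Ifitm3 (chr7:141010723-141010752 and chr7:141010706-141010735).
Ifitm2, ISRE before the start: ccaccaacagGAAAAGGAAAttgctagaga
Ifitm3, first ISRE after the start: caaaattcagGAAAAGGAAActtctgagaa
Ifitm3, second ISRE after the start: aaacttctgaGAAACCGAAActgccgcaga
The ISRE letters occurred in 3.43% of 32817 mouse start regions of this length. Ifitm2 had 1 match at positions -46 to -37, and Ifitm3 had 2, at positions 3 to 12 and 20 to 29 after the start. The windows of Ifitm1, Ifitm5 and Ifitm6 held no ISRE match. GC boxes, present in 35.6% of start regions, numbered 2 in Ifitm5 (positions -142 to -137 and -119 to -114), 2 in Ifitm2, 1 in Ifitm3 and 1 in Ifitm6. The interferon-gamma element TTCNNNGAA (8.29% of start regions) was found once in Ifitm6 and once in Ifitm3, where it overlaps the second ISRE match. TATAAA (13.6%) was found once in Ifitm6 and once in Ifitm2, and the Runx site AACCACA (5.27%) in none of the 5 windows. A match describes the letters in the window and not a site in use.

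Values are MAS5 signal, a background-corrected brightness on a linear scale with a trimmed mean of 100 on each array. Signal depends on the probes, so levels are compared between sites for 1 gene and never between genes. Array medians lay between 30.58 and 33.58. For tests, signal was divided by the median of the array, taken to log2 and fitted with limma over 25233 probe sets, each of which exceeded the median of its array on 2 or more arrays. A difference was called at a Benjamini-Hochberg adjusted p under 0.05 and at least 2-fold. All 5 members passed the filter, 4 of them on all 6 arrays. Ifitm5 was above the median on 5 arrays and at -0.21 (log2) from it on ulna replicate 1, so its level in the ulna is the least certain. Probe sequences were not used here, and cross-hybridisation among the closely related Ifitm1, Ifitm2 and Ifitm3 was not tested.

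Ifitm5 was strongly expressed in calvaria, intermediate in mandible and low in ulna. Its signal was 356.9 and 293.9 on the calvaria arrays, 184.8 and 140.3 on the mandible arrays, and 26.7 and 38.9 on the ulna arrays. No array of one site overlapped with any array of another. Calvaria exceeded ulna 9.53-fold, a log2 difference of 3.25 ± 0.22 (SE, n = 2 arrays per site, 95% interval 2.76 to 3.74, limma adjusted p = 1.25e-06). Mandible exceeded ulna 4.61-fold (log2 2.20 ± 0.22, interval 1.72 to 2.69, limma adjusted p = 1.61e-05). These comparisons share the ulna arrays. Mandible was below calvaria by a log2 difference of -1.05 ± 0.22 (interval -1.54 to -0.56, limma adjusted p = 0.00604), which only just passes the 2-fold limit. Its call was lost with quantile normalization (-1.0), without the variance trend (adjusted p = 0.0651), without moderation of the variances (adjusted p = 0.163), without calvaria replicate 1 (-0.91, adjusted p = 0.0722) and without mandible replicate 2 (-0.86, adjusted p = 0.0599). The order of calvaria above mandible is thus less secure than that of either above ulna. In whole bone, fewer cells of a type and less RNA per cell cannot be told apart.

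**Figure D1:**
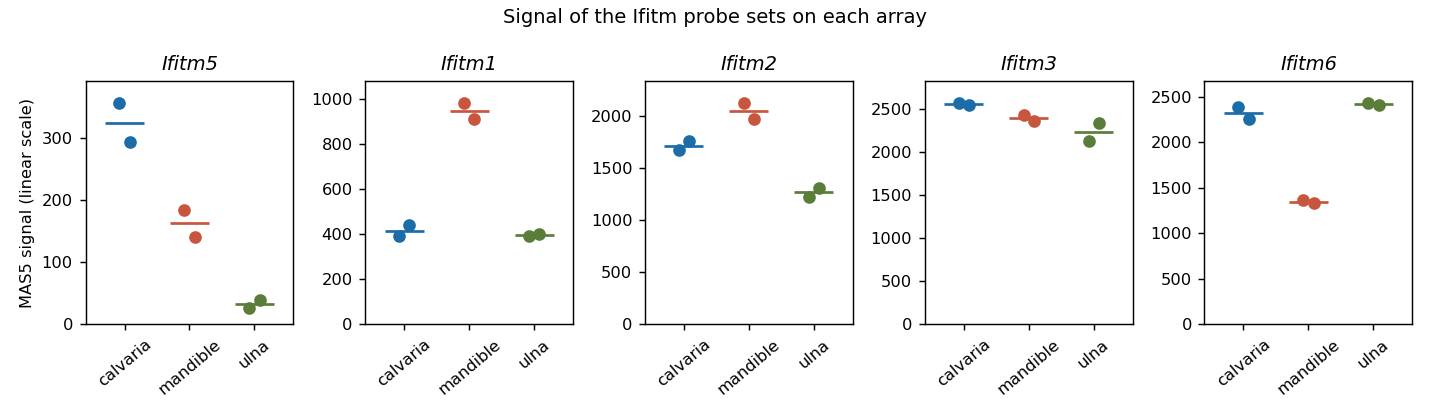
MAS5 signal (linear scale) of the probe set of each Ifitm gene in calvaria, mandible and ulna, with 1 point per array and a line at the mean of the 2 arrays. The mean of Ifitm5 is 325.4 in calvaria and 32.8 in ulna, Ifitm1 stands out in mandible and Ifitm6 is lowest there.

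Of the broadly expressed paralogues, Ifitm1 was higher in mandible than at either other site. The signal of Ifitm1 was 389.3 and 440.5 in calvaria, 980.4 and 910.3 in mandible, and 390.2 and 400.9 in ulna. Both mandible arrays were above all others, and the ulna arrays lay within the range of the calvaria arrays. Mandible exceeded ulna 2.20-fold (log2 1.14 ± 0.10, adjusted p = 3.95e-06) and calvaria 2.22-fold (log2 1.15 ± 0.10, adjusted p = 1.23e-05). Calvaria against ulna gave -0.01 ± 0.10 (interval -0.22 to 0.20, adjusted p = 0.952). The mandible arrays also carried RNA of tooth and oral epithelium. All 8 tooth genes tested were called higher in mandible than in ulna, where 11% of all tested genes were. Their summed signal was 64534 and 64724 in mandible against 55.3 to 104.9 elsewhere. For epithelium, 9 of 12 genes were called higher, with sums of 8175 and 8327 in mandible and 331.3 to 428.1 elsewhere. No marker was at 0 at any site, although the keratins Krt14 (2.26 and 2.52) and Krt5 (4.05 and 16.3) were near it in calvaria. The part of these tissues in the Ifitm1 level was not tested.

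Ifitm2 differed less between sites, in the order mandible, calvaria, ulna. Its signal was 1669 and 1758 in calvaria, 2124 and 1976 in mandible, and 1220 and 1311 in ulna. The sites did not overlap, but none of the differences reached 2-fold. Mandible was 1.49-fold above ulna (log2 0.58 ± 0.07, adjusted p = 8.88e-05) and calvaria 1.28-fold above ulna (log2 0.36 ± 0.07, adjusted p = 0.00353). Mandible and calvaria, neighbours in this order, gave 0.22 ± 0.07 (interval 0.06 to 0.38, adjusted p = 0.0566).

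Ifitm3, the member best known for restricting influenza virus, was the most even of the 5 across sites. Its signal was 2569 and 2552 in calvaria, 2435 and 2364 in mandible, and 2128 and 2335 in ulna. Calvaria against ulna gave a log2 difference of 0.12 ± 0.07 (limma adjusted p = 0.203). Its interval of -0.03 to 0.27 has an upper end at a 1.21-fold excess and reflects the scatter of these arrays on the scale used. Mandible against ulna gave -0.01 ± 0.07 (-0.16 to 0.14, adjusted p = 0.915) and mandible against calvaria -0.13 ± 0.07 (-0.28 to 0.02, adjusted p = 0.193). After scaling, the mandible arrays lay within the range of the ulna arrays. The sign of the mandible and ulna difference depended on the scaling, being 0.11 on the signal as deposited.

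Ifitm6 had the opposite profile to Ifitm1, with its lowest level in mandible. Its signal was 2389 and 2251 in calvaria, 1364 and 1330 in mandible, and 2430 and 2414 in ulna. Both mandible arrays were below all 4 others. Mandible was below ulna by -0.96 ± 0.06 (adjusted p = 7.25e-07), that is 1.95-fold lower, and below calvaria by -0.82 ± 0.06 (adjusted p = 7.88e-06), 1.77-fold lower. Both differences passed the adjusted p but not the 2-fold limit. Calvaria against ulna gave -0.14 ± 0.06 (interval -0.28 to 0.00, adjusted p = 0.13), and 0.02 after quantile normalization.

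The members' calls are read against those of the whole array. Between calvaria and ulna 1 member, Ifitm5, was called, where 11.9% of all tested probe sets were. Between mandible and ulna Ifitm5 and Ifitm1 were called, against 20.7% of probe sets, and between mandible and calvaria the same 2 genes were called in opposite directions, against 7.57%, with the Ifitm5 call lost in the settings named above. Without overlap between the scaled arrays were 4, 4 and 5 members in these comparisons, where 65.4%, 71.8% and 61.3% of probe sets were, so separation of the arrays is in itself common here. At the adjusted p alone, 2 members passed in calvaria against ulna (29.6% of probe sets), 4 in mandible against ulna (43.4%) and 3 in mandible against calvaria (21.9%), with Ifitm3 in none of them.

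**Figure D2:**
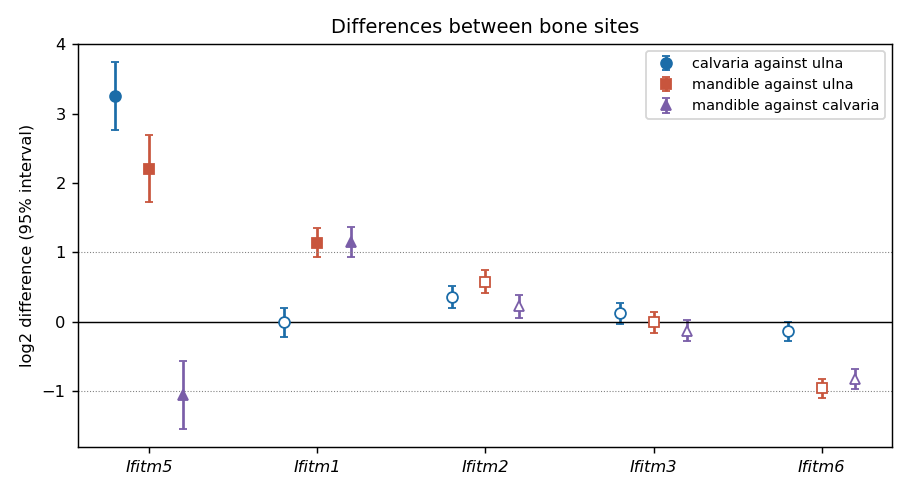
Log2 differences (y axis) of the 5 Ifitm genes between sites with 95% intervals from limma, where filled symbols were called and the dotted lines mark 2-fold. Ifitm5 reaches 3.25 between calvaria and ulna, while the interval of Ifitm3 includes 0 in all 3 comparisons.

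Whether Ifitm5 differed between sites by another amount than its paralogues was tested within arrays, by taking the log2 value of a paralogue from that of every probe set and fitting again, which also cancels the scaling of the array. Relative to Ifitm3, Ifitm5 was higher in calvaria than in ulna by 3.13 ± 0.21 (limma adjusted p = 2.94e-07, where 12.7% of probe sets were called) and higher in mandible than in ulna by 2.21 ± 0.21 (adjusted p = 4.17e-06, 20.6%). Mandible against calvaria gave -0.91 ± 0.21, under the 2-fold limit (adjusted p = 0.00846, 7.08%). The calvaria excess over ulna was similar against each of the other references, at 3.26 relative to Ifitm1 (adjusted p = 4.32e-07, 11.5% called), 2.89 relative to Ifitm2 (1.31e-06, 17.5%) and 3.39 relative to Ifitm6 (1.68e-07, 12%).

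The mandible values depended on which paralogue was the reference, since Ifitm1 and Ifitm6 themselves differ there. Mandible against ulna was 1.06 ± 0.23 relative to Ifitm1 (adjusted p = 0.000976, where 66.8% of probe sets were called), 1.62 ± 0.21 relative to Ifitm2 (4.69e-05, 37.9%) and 3.17 ± 0.21 relative to Ifitm6 (1.17e-07, 39.8%). The value relative to Ifitm1 fell under the 2-fold limit without mandible replicate 1 (0.92) and without ulna replicate 1 (0.81). Mandible against calvaria was -2.20 ± 0.23 relative to Ifitm1 (3e-06, 70%), -1.27 ± 0.21 relative to Ifitm2 (0.00108, 10.8%) and -0.22 ± 0.21 relative to Ifitm6 (interval -0.70 to 0.25, adjusted p = 0.365, 26.9%).

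Ifitm5 was then set beside other genes of osteoblasts. Of a list of 20 osteoblast genes 15 were tested, 13 were called higher in calvaria than in ulna and none lower, with a median log2 difference of 1.92. Over all tested genes 8.36% were called higher and 4.54% lower, with a median of -0.05. In mandible against ulna 14 of the 15 were called higher (median 1.84, against 11% of all tested genes and a median of -0.08). Named by the largest difference, Smpd3, a sphingomyelinase needed for mineralisation, was higher in calvaria than in ulna by 3.25 ± 0.30 (with an uncertain size, since its ulna arrays read 10.6 and 14.6, below the array medians), Omd (osteomodulin) by 3.04 ± 0.11, Col1a1 (type I collagen) by 3.04 ± 0.07 and Sparc (osteonectin) by 2.78 ± 0.06. Summed signal of the list was 57029 and 61241 in calvaria, 56941 and 56026 in mandible, and 12101 and 12435 in ulna, and all 15 genes were above 0 at each site.

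Between the skull bones the median of the list and Ifitm5 differed. The 15 osteoblast genes had a median of -0.01 in mandible against calvaria, whereas Ifitm5 was at -1.05. Called higher were 2 of them, Alpl (1.51 ± 0.10) and Phex (1.76 ± 0.09), and none was called lower (all tested genes: 5.14% higher, 4.01% lower, median -0.09). At the adjusted p with no limit of fold 3 were higher and 4 lower, where 10.5% and 16.2% of all tested genes were. The list ranged from -0.80 to 1.76. The mandible arrays also carried tooth RNA, and its part in the list was not tested. With the mean log2 value of the list taken from each array, Ifitm5 remained higher in calvaria than in ulna by 1.28 ± 0.22 (adjusted p = 0.000188, where 89.9% of probe sets were called) and lower in mandible than in calvaria by -1.17 ± 0.22 (adjusted p = 0.003, 8.92%). Mandible against ulna gave 0.11 ± 0.22 (interval -0.38 to 0.60, adjusted p = 0.632, 90.1%), a value that changed sign without mandible replicate 1 (-0.08) and without ulna replicate 1 (-0.13). The lower value in mandible than in calvaria lost its call without calvaria replicate 1 (-0.98) and without mandible replicate 2 (-0.98).

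Other cell types also differed between sites, and not all in the order of Ifitm5. Skeletal muscle went the other way in calvaria against ulna. The fibroblast list had a median of 0.04 in mandible against calvaria, with 3 of 10 genes called lower. Of all tested genes 8.36% were called higher and 4.54% lower in calvaria against ulna, and 4.01% lower in mandible against calvaria. The 16 skeletal muscle genes were all called lower in calvaria than in ulna (median -3.34), with sums of 9654 and 9674 in calvaria, 66581 and 66073 in mandible, and 76429 and 77607 in ulna, and none at 0. Of 10 fibroblast genes 9 were called higher in calvaria than in ulna (median 1.82), with sums of 25881 and 26690 against 5960 and 6310, while mandible had 28158 and 28154. Of 11 osteoclast genes 5 were called lower in mandible than in calvaria and none higher (median -1.0), and their sums were 12370 and 12759 in calvaria, 6964 and 6719 in mandible, and 3804 and 4291 in ulna. The 5 calls became 2 and 3 without calvaria replicate 1 and 2, and 3 and 1 without mandible replicate 1 and 2. Of 12 genes of meninges and neural tissue 9 were called higher in calvaria than in ulna (median 2.09, and 1.87 without calvaria replicate 2). The number called fell with any array but ulna replicate 2 left out, and most without calvaria replicate 2. In mandible against calvaria 6 of the 12 genes were called lower and 2 higher (median -1.19). Their sums were 3925 and 3428 in calvaria, 1627 and 1673 in mandible, and 563.0 and 579.5 in ulna. The part of these tissues in the Ifitm5 differences was not tested.

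**Figure D3:**
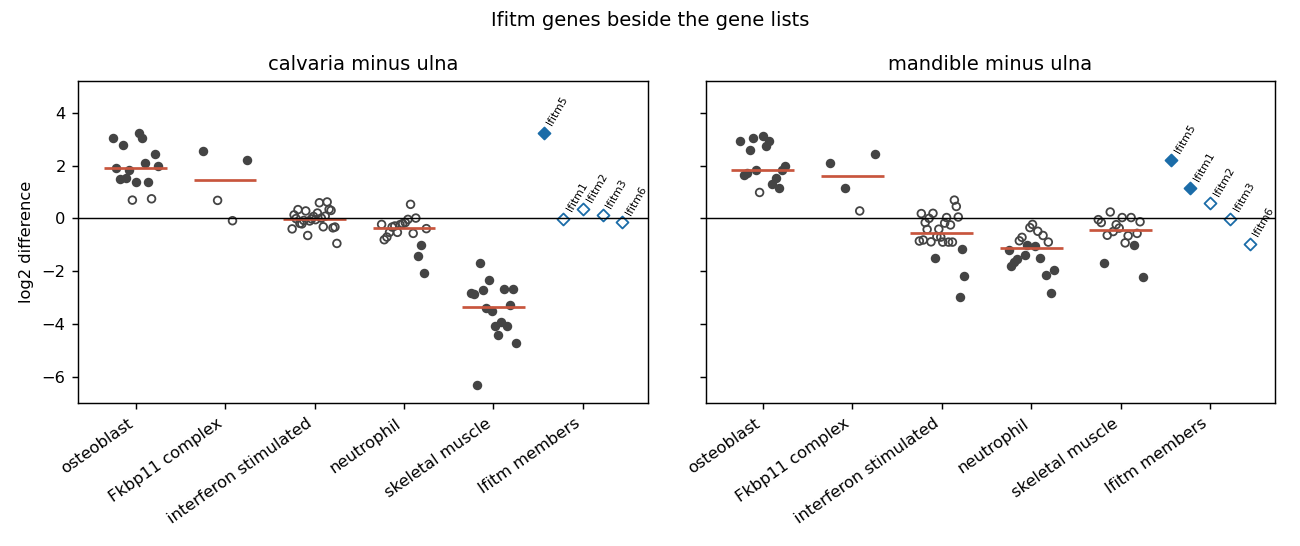
Log2 differences (y axis) of tested genes of 5 lists and of the Ifitm genes for calvaria minus ulna and mandible minus ulna, where filled symbols were called and red lines are list medians. Ifitm5 lies at 3.25 and 2.20, beside osteoblast medians of 1.92 and 1.84.

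The proteins that assemble with Ifitm5 were considered next. In mouse osteoblasts Ifitm5 binds Fkbp11, a prolyl isomerase of the endoplasmic reticulum, in a complex with the tetraspanins Cd81 and Cd9 and the immunoglobulin-type protein Ptgfrn. Fkbp11 had a signal of 165.5 and 171.7 in calvaria, 138.7 and 118.0 in mandible, and 16.7 and 45.3 in ulna. It was higher than in ulna by 2.54 ± 0.37 in calvaria (limma adjusted p = 4.18e-04) and by 2.10 ± 0.37 in mandible (limma adjusted p = 9.17e-04). The 2 ulna arrays lay apart, with the first below its array median, so the size of these differences is uncertain. Ptgfrn was higher by 2.21 ± 0.14 in calvaria and 2.43 ± 0.14 in mandible, on 388.9 and 336.6, 399.5 and 470.0, and 72.7 and 75.8. Thus 2 of 4 partners were called higher in calvaria than in ulna and 3 of 4 in mandible than in ulna. Of all tested genes 8.36% and 11% were called higher in these comparisons. The third in mandible was Cd81 (1.13 ± 0.07, limma adjusted p = 3.74e-07). In calvaria Cd81 was at 0.68 ± 0.07 and under 2-fold, and Cd9 gave -0.09 ± 0.06 in calvaria and 0.28 ± 0.06 in mandible. Between mandible and calvaria limma called none of the 4, although Cd81 (0.45 ± 0.07, adjusted p = 0.000766) and Cd9 (0.37 ± 0.06, adjusted p = 0.00165) passed the adjusted p and missed only the 2-fold limit. An unadjusted p under 0.05 was found for the same 2, where 4824 of all 12326 tested genes had one.

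A list of 6 transcription factors held the Sp and Gli factors reported for the Ifitm5 promoter in mouse osteoblasts, together with Creb3l1. In calvaria against ulna 4 were called higher and none lower, where 8.36% of all tested genes were higher and 4.54% lower. Sp7 (osterix), the zinc finger factor of osteoblast commitment, was higher than in ulna by 1.84 ± 0.13 in both skull bones, and Creb3l1, a membrane-bound factor of the stress response in osteoblasts, by 2.54 ± 0.19 in calvaria and 2.55 ± 0.19 in mandible. The hedgehog factor Gli2 was higher by 2.37 ± 0.44 in calvaria and 2.93 ± 0.44 in mandible, but its ulna arrays read 14.1 and 6.41, below the array medians, so the size of these differences is uncertain. Gli1 was called at 2.79 ± 0.90 in calvaria, but its ulna arrays read 1.68 and 16.7, and without ulna replicate 1 the difference was 1.12 (adjusted p = 0.0958). Its call in calvaria was also lost without calvaria replicate 1 (adjusted p = 0.162), calvaria replicate 2 (0.126), mandible replicate 1 (0.0651) and mandible replicate 2 (0.0658). In mandible it was at 2.99 ± 0.90, and that call was lost without mandible replicate 1 (adjusted p = 0.0861) or mandible replicate 2 (0.0932). Sp1 and Sp3, the ubiquitous factors of the GC box, went the other way but under 2-fold, at -0.59 ± 0.07 and -0.49 ± 0.17 in calvaria and -0.79 ± 0.07 and -0.74 ± 0.17 in mandible. Between mandible and calvaria limma called none of the 6, with Sp7 at -0.01 and Creb3l1 at 0.01. An unadjusted p under 0.05 was found for 1 of the 6, and for 4824 of all 12326 tested genes.

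Other genes mutated in osteogenesis imperfecta, the brittle bone disease, were mostly higher in the skull bones than in ulna. Of 17 tested, some of which are also in the osteoblast list, 13 were called higher in calvaria than in ulna (median 1.92) and 12 in mandible than in ulna (median 2.0), with none lower. Of all tested genes 8.36% were higher and 4.54% lower in the first comparison, and 11% and 10.9% in the second. Serpinf1, which encodes an anti-angiogenic factor, was higher in calvaria by 3.74 ± 0.07 and Serpinh1, the collagen chaperone, by 3.56 ± 0.07. Between mandible and calvaria 1 was called higher and none lower (median -0.13), where 5.14% of all tested genes were higher and 4.01% lower. At the adjusted p with no limit of fold 1 was higher and 5 lower, where 10.5% and 16.2% of all tested genes were.

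Interferon-stimulated genes were examined because Ifitm1, Ifitm2 and Ifitm3 belong to that response. Of 24 tested, limma called none between calvaria and ulna (median -0.01), while 7 had an unadjusted p under 0.05 and 1 was called lower without calvaria replicate 2 or ulna replicate 2. Of all 12326 tested genes 5508 had an unadjusted p under 0.05 in that comparison. In mandible against ulna 4 of the 24 were called lower and none higher (median -0.56, against 10.9% of all tested genes called lower). In mandible against calvaria 2 were called lower (median -0.52, against 4.01% of all tested genes). At the adjusted p with no limit of fold, 13 of 24 were lower in mandible than in ulna, against 28.1% of all tested genes, and 12 of 24 lower in mandible than in calvaria, against 16.2%. The 4 were Rsad2 (viperin, -1.50 ± 0.07), Cmpk2 (a mitochondrial nucleotide kinase, -2.18 ± 0.17), Dhx58 (an RNA sensor, -2.99 ± 0.58) and Parp14 (an ADP-ribosyltransferase, -1.17 ± 0.21), of which the last 3 were named after their values were seen. Dhx58 read 15.6 and 4.22 in mandible, below the array medians, so the size of its difference is uncertain. Parp14 fell under 2-fold without mandible replicate 1 (-0.90). Without ulna replicate 1 the count called lower in mandible against ulna was 7, and without calvaria replicate 2 that in mandible against calvaria was 0. B2m, the light chain of class I antigen presentation, was at 0.20 ± 0.05 in calvaria and -0.18 ± 0.05 in mandible against ulna. Ifitm1, at 1.14 in mandible against ulna, and Ifitm2, at 0.58, thus lay on the other side of 0 from the median of this list. Of 11 receptors and transducers of interferon, limma called none in any comparison. An unadjusted p under 0.05 was found for 3, 6 and 5 in calvaria against ulna, mandible against ulna and mandible against calvaria. Of all 12326 tested genes, 5508, 6826 and 4824 had one in the same comparisons. At the adjusted p with no limit of fold, 4 of the 11 were lower in mandible than in ulna and 4 lower in mandible than in calvaria, and none was higher in mandible.

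Ifitm6 was set beside genes of neutrophils. Of 18 tested, 11 were called lower in mandible than in ulna and none higher (median -1.13). In mandible against calvaria 4 were called lower (median -0.82), and in calvaria against ulna 3 (median -0.36). Of all tested genes 10.9%, 4.01% and 4.54% were called lower in these comparisons. At the adjusted p with no limit of fold 18, 15 and 13 were lower, where 28.1%, 16.2% and 18.4% of all tested genes were. At that limit 1 was higher, in calvaria against ulna. Summed signal of the 18 genes was 63914 and 63461 in mandible, 80546 and 85332 in calvaria, and 94504 and 96218 in ulna. None of the 18 was at 0. Among them Stfa2l1, a stefin of granulocytes, was at -2.82 ± 0.15 and Csf3r, the receptor of granulocyte colony-stimulating factor, at -2.15 ± 0.16 in mandible against ulna. Genes of other marrow lists were called lower in mandible too. Against ulna 8 of 8 erythroid genes (median -1.60), 4 of 11 B cell genes (median -0.85) and 2 of 10 monocyte and macrophage genes (median -0.54) were called lower, and against calvaria 2 of 8 (median -0.80), 6 of 11 (median -1.02) and 3 of 10 (median -0.69), where 10.9% and 4.01% of all tested genes were lower. Without calvaria replicate 2 none of the 8 erythroid genes was called against calvaria (median -0.72). Summed signal in mandible, calvaria and ulna was 3610 to 4015, 6267 to 6759 and 10411 to 10862 for the erythroid list, 2128 to 2137, 3628 to 4021 and 3269 to 3549 for B cells, and 8484 to 8575, 12324 to 12741 and 12442 to 12673 for monocytes and macrophages. The part of these cells in the Ifitm6 level was not tested. With the mean log2 value of the neutrophil list taken from each array, Ifitm6 gave -0.08 ± 0.08 in mandible against calvaria (interval -0.25 to 0.09, adjusted p = 0.373, where 21.8% of probe sets were called). Relative to the list it was 0.36 ± 0.08 higher in calvaria than in ulna (adjusted p = 0.00378, 17.7%) and 0.28 ± 0.08 higher in mandible than in ulna (adjusted p = 0.00734, 55.1%), both under 2-fold.

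More distant relatives were mostly too dim to test. Of 9 further Ifitm and dispanin genes 6 were on the array under their own symbol, and 2 passed the filter, Trarg1, which acts in glucose transporter traffic, and Prrt1, a protein of synapses. Neither was called by limma in any comparison, with Prrt1 at 0.73 ± 0.25 in calvaria against ulna (adjusted p = 0.0447). Ifitm10 had a signal between 7.18 and 37.2 and Ifitm7 between 6.94 and 22.6 on the 6 arrays, and Syndig1 and Tmem91 were also below the filter. Ifitm4p, Tmem233 and Prrt2 were not analysed here.

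Genes flanking the cluster did not share one pattern. Pgghg, the nearest neighbour of Ifitm5, read 76.5 and 87.7 in calvaria, 73.3 and 63.5 in mandible, and 47.4 and 52.9 in ulna, and its calvaria excess over ulna was 0.63 ± 0.23 (interval 0.13 to 1.14, adjusted p = 0.0594). Cox8b, a heart and muscle subunit of cytochrome oxidase that also lies beyond Ifitm5, was called in the other direction, at -3.70 ± 0.16 in calvaria against ulna (adjusted p = 3.12e-08) and 3.76 ± 0.16 in mandible against calvaria. On the side of Ifitm6, Sigirr, an inhibitory receptor of the interleukin family, was at -0.44 ± 0.28 (adjusted p = 0.27) and Pkp3, a desmosome protein, at 0.19 ± 0.40 (adjusted p = 0.766). Nlrp6, B4galnt4 and Ano9 were below the filter, and the remaining annotated neighbours (Gm15542, BC024386, Gm39114) had no probe set of their own here. Gm7514, a pseudogene, and the noncoding Gm33504 lie between the members and were likewise without one.

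Genes with a profile most like each member were sought by the root mean square distance between log2 values over the 6 arrays, after the mean over the arrays was taken from each gene. This is a description over arrays of 3 sites. Nearest to Ifitm5 were Twist1 (distance 0.23 log2 units), a basic helix-loop-helix regulator known for its role in suture formation, Eno2 (0.25), the neuronal enolase, Rundc3a (0.27), Tnmd (0.27), a glycoprotein of tendon, and Col11a2 (0.27), a fibrillar collagen chain of cartilage. Mmp16 (0.28), a membrane-bound metalloproteinase, Dner (0.30), a neuronal transmembrane protein, Cacna2d2 (0.31), a calcium channel subunit, Ctsk (0.33), the collagen-cleaving protease of osteoclasts, and Galr2 (0.35), a galanin receptor, followed. Twist1 read 406.5 and 438.7 in calvaria, 188.2 and 179.5 in mandible, and 34.1 and 35.7 in ulna. All 3 of its differences were called, at 3.52, 2.28 and -1.24 for calvaria against ulna, mandible against ulna and mandible against calvaria. Ifitm2 was the paralogue closest to Ifitm5, at a distance of 1.20 and rank 2320 among 12326 tested genes, followed by Ifitm3 (1.33), Ifitm1 (1.38) and Ifitm6 (1.56). For a gene that varies little, such as Ifitm3, this distance is mostly the variation of Ifitm5 itself. The order of the paralogues is thus no measure of a shared pattern.

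**Figure D4:**
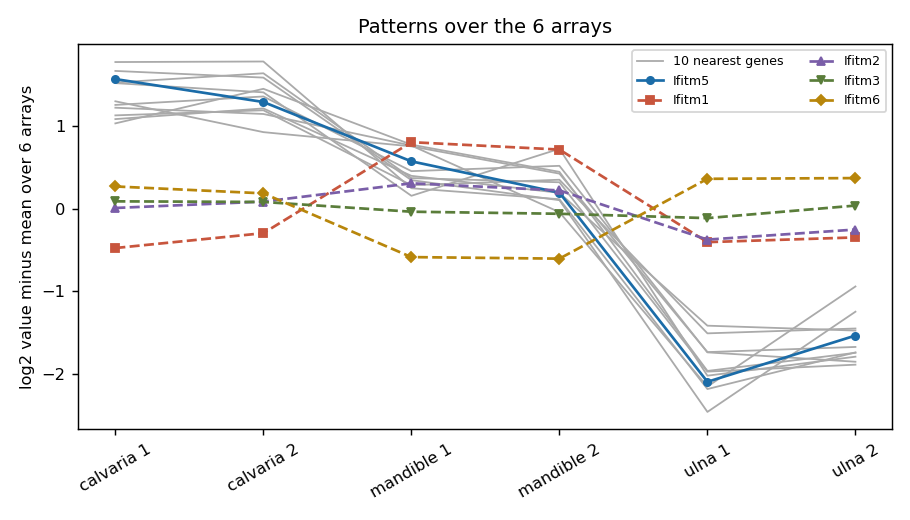
Scaled log2 signal minus the mean over the 6 arrays (y axis) for the Ifitm genes and the 10 tested genes nearest to Ifitm5 (grey), with 1 position per array on the x axis. Ifitm5 runs with the grey lines, at distances of 0.23 to 0.35, and the paralogues lie at 1.20 or more from it.

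The paralogues had other neighbours. Nearest to Ifitm1 were Timp3 (0.065), an inhibitor of metalloproteinases, Me1 (0.095), the cytosolic malic enzyme, Exosc2 (0.10), a subunit of the RNA exosome, Cnr1 (0.12), a cannabinoid receptor, and Dst (0.12), which encodes dystonin. Timp3 was higher in mandible than in ulna by 1.19 and than in calvaria by 1.11. Nearest to Ifitm6 were Xdh, Apobec1, Mgst1, Cd48 and Hebp1, at distances of 0.0575 to 0.0627, and their mandible values against ulna lay between -1.09 for Mgst1, a microsomal glutathione transferase, and -0.90 for Xdh, which encodes xanthine dehydrogenase. Ifitm2 lay within 0.0467 of Glo1, Pfdn5, Tmem88, Zfp386 and Cdc37, and Ifitm3 within 0.0371 of Tmem80, Kcnj11, 2410004B18Rik, Rps6 and Cox6a1. Of the 10 genes nearest to Ifitm5, Eno2 (5.32 and 12.2), Rundc3a (12.8 and 13.2), Mmp16 (16.0 and 18.4), Dner (13.9 and 16.1), Cacna2d2 (5.02 and 11.5) and Galr2 (7.64 and 7.24) read below the median of both ulna arrays, and their distances and ranks rest on those dim values. The distance is in log2 units and scales with how much a gene varies, so those of Ifitm2 and Ifitm3 are not set against those of Ifitm5.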

How the data were processed

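RNA of calvaria, mandible and ulna (2 arrays each) was measured on Affymetrix mouse GeneChip arrays after 1 round of amplification. The authors deposited MAS5 signal intensity, scaled to a trimmed mean of 100 per array. Symbols came from the platform annotation (1 symbol for 34945 probe sets, several for 932, none for 9160, 64 controls left out). Signal was divided by the array median over all probe sets, a choice made here since the methods name a per chip step without its formula, and log2 was taken without an offset. Probe sets above the median on at least 2 of 6 arrays were tested (25233, standing for 12326 genes). A mean per site was fitted in limma 3.58.1 (R 4.3.3, variance trend, prior degrees of freedom 7.67, residual 3), and p-values were adjusted over all tested probe sets by Benjamini-Hochberg. Within a site the arrays had a median SD of 0.194 (log2), and having 2 arrays per site bounds the precision. Where a gene had several tested probe sets, the brightest was used. Means are of deposited signal, and folds are of geometric means of scaled values.

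Simulated data served as a check of the fit. Their scatter was drawn from the fitted spread, independently for each probe set and array. They held no effect shared within an array, so they do not test the calls on these arrays. For calvaria against ulna the fit recovered 69% of 100 simulated 3-fold changes and 89% of 100 simulated 8-fold changes among 25233 probe sets. It made 0 calls for mandible against ulna with no change simulated. The members and the gene lists were chosen with earlier results of these data known. Lists covered osteoblasts, osteogenesis imperfecta, Fkbp11 partners, Ifitm5 promoter factors, interferon-stimulated genes, interferon receptors, neutrophils, macrophages, B cells, erythroid cells, osteoclasts, muscle, endothelium, fibroblasts, tooth, epithelium, meninges with neural tissue, and Ifitm relatives. Of 11 endothelial genes 1 was called higher and 1 lower in mandible against ulna, where 11% and 10.9% of all tested genes were. In calvaria against ulna 1 was called higher and 1 lower (all tested genes: 8.36% and 4.54%). In mandible against calvaria none was called (all tested genes: 5.14% higher and 4.01% lower). Named were all members, all partners, promoter factors and relatives, up to 4 called genes per list with the largest difference between calvaria and ulna (or the 2 with the highest mean), the nearest profiles and 5 annotated genes on each side of the cluster. Alpl and Phex were named as the 2 osteoblast genes called between the skull bones. Motifs were searched in RefSeq start regions with Python 3.11.15, and plots were drawn with matplotlib 3.10.9.

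Alternatives were the deposited scale, quantile normalization, the 75th percentile as scale or filter, no filter, an offset of 0.25 array medians, no trend, no moderation, the arrays of a comparison alone, a replicate block, each array left out, the adjusted p alone and 1 probe set per gene.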

Additional observations from a re-analysis of the deposited data

How the results depend on the processing

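Of 561 recomputed values of the members, 532 kept direction and call, 13 lost a call, 2 gained one and 14 changed sign. Ifitm5 in mandible against calvaria (-1.05) lost its call with quantile normalization (-1.0), without the variance trend (-1.05, adjusted p = 0.0651) and without moderation (-1.05, adjusted p = 0.163), and ranged from -1.24 to -0.86 with arrays left out. Relative to Ifitm3 it ranged from -1.09 to -0.74, called without calvaria replicate 2 and without mandible replicate 1. Sign changes were confined to values near 0: Ifitm1 in calvaria against ulna (0.0664 as deposited, 0.0687 with quantiles, 0.0461 at the 75th percentile, -0.10 to 0.0803 with arrays left out), Ifitm3 in mandible against ulna (0.11, 0.13, 0.0934, -0.0868 to 0.0651), Ifitm6 in calvaria against ulna (0.0214 with quantiles) and Ifitm5 relative to osteoblast genes in mandible against ulna (-0.0454 with the offset, -0.13 to 0.36 with arrays left out). Ifitm5 relative to osteoblast genes in mandible against calvaria lost its call without moderation (-1.17, adjusted p = 0.127) and ranged from -1.36 to -0.98. Probe sets called in calvaria against ulna, mandible against ulna and mandible against calvaria numbered 7475, 10961 and 5532 at the adjusted p alone, 1783, 3107 and 1189 with the filter at the 75th percentile, 1566, 3455 and 723 without moderation, and 1613, 2713 and 1171 with 1 probe set per gene, against 2991, 5224 and 1909. With the replicate block the counts were 2929, 5183 and 1848, Ifitm5 in mandible against calvaria stayed at -1.05 (adjusted p = 0.00914) and no call of a member changed, and same-numbered arrays did not deviate together (correlations of -0.0123 to 0.00585). The median difference of all tested probe sets in mandible against ulna was -0.134 after scaling and -0.017 as deposited. Causes were not tested.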
